A study of Homo sapiens with 1536 samples.

Results

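Nucleoside antimetabolites and inhibitors of DNA methyltransferase (DNMT) were 7 of the 180 compounds of a pooled breast cancer screen. Relative cell numbers were deposited for all but 6 of the 180, and for all 7 of these. They were chosen by name, with all doses, both replicates and all lines kept. Gemcitabine, Clofarabine, Nelarabine and FiveFluorouracil made up the antimetabolites, and Decitabine, Zebularine and RG108 the DNMT inhibitors. Each was given at 10, 100, 1000 and 10000 nM to 2 wells a dose for 72 h, which made 56 wells. The controls were 96 wells that received DMSO, the solvent, for the same time.

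Every well, treated or control, held the same co-culture of 5 breast cancer cell lines: the ER+ line ZR-75-1, the HER2+ line SKBR3, and the triple-negative lines BT-20, HCC-38 and MDA-MB-231. All cells carried doxycycline-inducible Cas9 and 1 of 12 sgRNA identities (11 against a gene, mostly of protein homeostasis, and sgNT for pooled non-targeting guides), and all had been kept in doxycycline for 7 days before treatment. Cells of a human embryonic kidney line were added at lysis at 5 known numbers as spike-in standards, so that reads could be turned into cell numbers within each well. The line mean used here is the average relative cell number, in percent of the DMSO median, over the sgRNAs of a line (10 in ZR-75-1, where sgHSF1 and sgKEAP1 were left out, as in the methods, for their variation between DMSO wells, and 12 elsewhere).

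The identity of a line was read from an 8-base barcode beside the sgRNA, and these are shown because every value below rests on telling the lines of a well apart. The letters are all in capitals because the whole barcode is the readout.
ZR-75-1: ATCACTGG
SKBR3: CGGTGACC
HCC-38: TACAGAGG
MDA-MB-231: TAACAGTT
BT-20: ATTGTCAA

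Antimetabolites resemble the building blocks of nucleic acids. After phosphorylation in the cell many are built into DNA, where they hinder further synthesis, or they block enzymes that supply nucleotides, and they act chiefly on cells in S phase. Cytidine analogues used as DNMT inhibitors are also incorporated, but there they trap the methyltransferase on DNA, so that methylation is lost over successive divisions. The present readout was the number of barcoded cells, so that cell death and slower growth cannot be told apart, and methylation was not measured.

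Read depth of the 56 wells ran from 78898 to 1384130 reads, with a median of 525746, against a median of 522691 in DMSO wells. Spike-in standards took 5.37% to 35.2% of the reads. The share was 19.8% to 34.9% in Gemcitabine wells and 5.37% to 6.32% in Zebularine wells, and the DMSO wells lay between 4.52% and 7.10%. Over the 96 DMSO wells, the SD of a line mean was 10.6 to 14.3 percentage points. Nothing in the labels names separate cultures for replicate wells, the lines of a well share its standards, and p-values measure only the spread between wells. The groups are thus those of 1 screen, and no line was treated on its own.

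Across compounds, doses and lines, relative cell number was lower than in DMSO in 54 of 140 combinations of the 7 compounds and higher in 0 (limma with Benjamini-Hochberg adjustment over all compounds with values). Over all 3480 combinations of the screen, 32.5% were lower and 1.55% higher. The count was made up unevenly, with 20 of 20 for Gemcitabine, 15 for Clofarabine, 11 for Decitabine, 7 for FiveFluorouracil, 1 for RG108, and 0 for both Nelarabine and Zebularine. In 49 of the 140, both wells lay below the lowest of the 96 DMSO wells of that line, beside 26.6% over the screen. The 7 compounds thus ranged from fewer cells than in DMSO at every dose to no detected change at any.

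**Figure D1:**
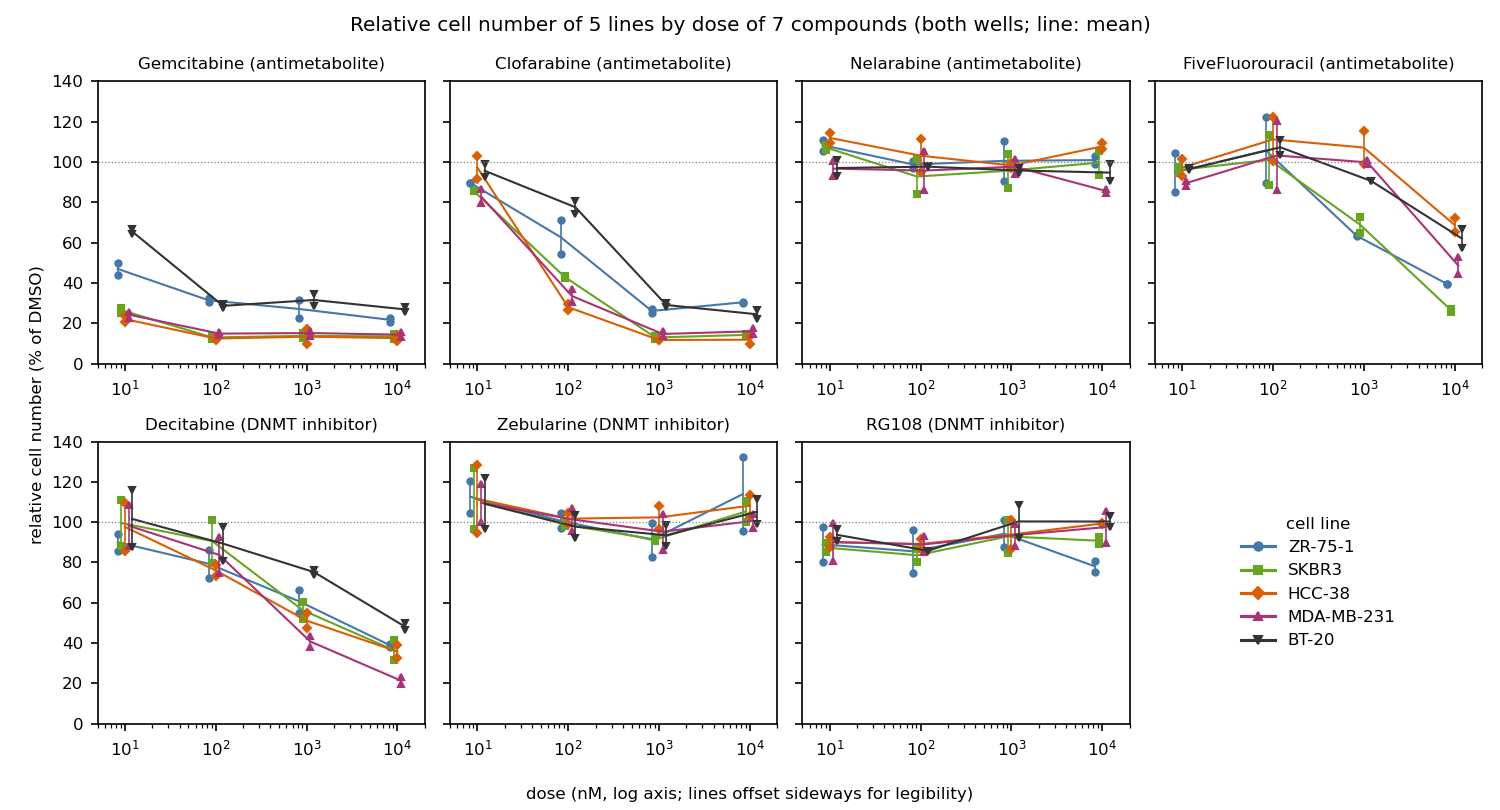
Relative cell number (percent of DMSO, vertical axis) against dose (nM, log axis) for each compound, with a colour and symbol for each line, symbols for both wells and a line through their mean. Gemcitabine lies low from 10 nM, Clofarabine falls between 10 and 1000 nM, Decitabine and FiveFluorouracil fall at the upper doses, and Nelarabine, Zebularine and RG108 stay between 78.1% and 113.9% in every line mean.

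Gemcitabine, deoxycytidine with a pair of fluorine atoms on the sugar, lowered cell number in all 5 lines at the lowest dose. At 10 nM the wells of HCC-38 held 20.5% and 23.7% of DMSO, those of MDA-MB-231 22.9% and 25.9%, and those of SKBR3 25.3% and 27.85%. ZR-75-1 wells were at 43.9% and 50.2%, and the BT-20 mean was 65.6% ± 2.04 (SD, n = 2). The 3 first lines lay together and apart from ZR-75-1, and BT-20 was the highest, with no overlap between these wells. Against DMSO, the log2 difference at 10 nM ran from -2.20 ± 0.11 (SE) in HCC-38 to -0.62 ± 0.11 in BT-20 (limma, adjusted p = 4.80e-67 and 9.56e-08).

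From 100 nM upwards Gemcitabine changed little more. At 100 nM the line means were 12.5% ± 1.12 (SD, n = 2) in HCC-38, 13.04% ± 0.939 in SKBR3 and 14.9% ± 1.09 in MDA-MB-231, with 28.7% ± 1.53 in BT-20 and 31.5% ± 1.45 in ZR-75-1. A dose 100 times higher gave 12.7%, 13.6%, 14.4%, 26.97% and 21.8% in the same order. The ratio of the 10000 nM mean to the 100 nM mean was 0.69 in ZR-75-1 and up to 1.04 in SKBR3. The curve was therefore flat in BT-20 and the 3 lowest lines, while ZR-75-1 wells at 10000 nM (20.8% and 22.8%) lay below those at 100 nM (30.5% and 32.5%). The difference between doses was not tested. Summed over lines, the interpolated number of cells was 5211 and 5145 in the 100 nM wells, and 4543 and 5114 in the 10000 nM wells.

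Clofarabine, a purine analogue with halogens on both base and sugar that is known to inhibit ribonucleotide reductase and DNA polymerases, reached nearly the same floor at a higher dose. At 10 nM no line was lower than DMSO (0 of 5), with line means of 82.99% to 97.3%. At 100 nM all 5 were lower, and the lines spread out from 28.04% in HCC-38 to 77.6% in BT-20. The 100 nM wells of HCC-38 were at 26.5% and 29.6%, those of MDA-MB-231 at 30.4% and 36.8%, and those of SKBR3 at 42.4% and 43.7%. ZR-75-1 wells were at 54.3% and 71.1%, and BT-20 wells at 74.5% and 80.7%. None of these pairs of wells overlapped with the next, and of the 4 doses 100 nM gave the widest range of Clofarabine line means.

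At 1000 nM Clofarabine left 29.1% in BT-20 and 26.2% in ZR-75-1, with 11.8% in HCC-38, 13.01% in SKBR3 and 14.8% in MDA-MB-231. Raising the dose to 10000 nM gave 24.5% and 30.4%, with 11.9%, 14.3% and 16.1%, in the same order. The ratio between these doses lay between 0.84 in BT-20 and 1.16 in ZR-75-1. Interpolated to 50% of DMSO on a log dose scale, the dose was 46.6 nM in MDA-MB-231 and 48.2 nM in HCC-38, then 68.8 nM in SKBR3, and much higher in ZR-75-1 (222.6 nM) and BT-20 (371.3 nM). Such a value for Gemcitabine existed only in BT-20 (26.4 nM), since the other lines were already below 50% at 10 nM.

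Nelarabine, a prodrug of the arabinose nucleoside of guanine that is used against T-cell leukaemia, gave no value that passed the test against DMSO. Its line means ran from 85.7% to 112.04% over the 4 doses. The lowest was MDA-MB-231 at 10000 nM, with wells at 84.8% and 86.7% (log2 difference -0.24, 95% interval -0.50 to 0.02, limma adjusted p = 0.182). At the same dose HCC-38 wells were at 106.4% and 109.3%. The 95% interval of the log2 difference from DMSO in HCC-38 was -0.13 to 0.32.

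FiveFluorouracil, a free pyrimidine base with a fluorine and no sugar, is converted in cells to nucleotides that inhibit thymidylate synthase and enter RNA and DNA. No line was lower at 10 or 100 nM, where the line means were 89.5% to 111.3%. At 1000 nM 2 lines were lower, ZR-75-1 with wells at 63.2% and 63.8%, and SKBR3 with wells at 64.98% and 72.8%. At that dose HCC-38 wells were at 98.9% and 115.6%, MDA-MB-231 wells at 98.8% and 100.9%, and BT-20 wells at 90.5% and 90.8%. At 10000 nM all 5 lines were lower, with the lowest means in SKBR3 (26.6%) and ZR-75-1 (39.5%), then MDA-MB-231 (48.7%), BT-20 (62.1%) and HCC-38 (68.8%). The line that kept the most cells under FiveFluorouracil was HCC-38, which kept the fewest at 10000 nM of Gemcitabine and Clofarabine. No plateau was seen, as the last 10-fold step still lowered the mean to between 0.39 and 0.69 of its value.

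Decitabine, deoxycytidine with a nitrogen in place of a ring carbon, fell gradually over the whole range. Line means were 90.01% to 101.6% at 10 nM, where 0 of 5 lines were lower than DMSO. At 100 nM they were 76.03% to 90.6%, and only HCC-38 passed the test (wells at 73.4% and 78.7%, log2 difference -0.41 ± 0.11, limma adjusted p = 0.00112). All 5 lines were lower at 1000 nM, from 40.8% in MDA-MB-231 to 75.2% in BT-20. At 10000 nM the wells of MDA-MB-231 were at 19.8% and 22.97%, those of HCC-38 at 32.7% and 38.9%, and those of SKBR3 at 31.6% and 41.4%. The ZR-75-1 mean was 38.9% ± 1.24 (SD, n = 2), with both wells inside the range of the SKBR3 wells, and BT-20 wells at 46.7% and 49.8%. MDA-MB-231 was the lowest and BT-20 the highest, and both were apart from the other 3 lines, whose wells overlapped. The interpolated dose for 50% was lowest in MDA-MB-231 (610.3 nM) and highest in BT-20 (8614 nM), with HCC-38 (1185.9 nM), SKBR3 (2072 nM) and ZR-75-1 (3087 nM) between.

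Zebularine, cytidine without the amino group of the base, stayed between 91.3% and 113.9% in the line means, and no dose or line passed the test against DMSO. Wells at 10000 nM were at 95.6% and 132.1% in ZR-75-1, which was the widest pair, and at 98.97% and 111.4% in BT-20. RG108, a compound aimed at DNA methyltransferase, gave line means of 78.1% to 100.3%. Its 1 value that passed the test was ZR-75-1 at 10000 nM, with wells at 75.4% and 80.7% (log2 difference -0.37 ± 0.15, 95% interval -0.66 to -0.07, limma adjusted p = 0.0441). Both wells still lay above the lowest DMSO well of that line, at 64.3%. Of the 20 sgRNA values behind this mean, 1 lay below the lowest standard, and the lowest value was 12.9%. Summed over sgRNAs, the 2 wells held 2988 interpolated cells of ZR-75-1 on average, against a DMSO median of 3459.

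To compare compounds over the whole dose range, the AUC, the area under the curve of relative cell number by dose, was taken as the sum of the 4 values with a weight of 0.5 for the outer doses, so that no change at any dose gives 300. The mean over lines was 67.9 for Gemcitabine, 122.9 for Clofarabine, 207.4 for Decitabine, 263.8 for FiveFluorouracil, 273.2 for RG108, 296.4 for Nelarabine and 303.6 for Zebularine. Ordered from the lowest AUC among the compounds with the same doses, the first 5 ranked 4, 11, 29, 79 and 91. Counted from the highest AUC, Nelarabine ranked 31 and Zebularine 21. Each class thus held compounds with AUC values far apart.

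**Figure D2:**
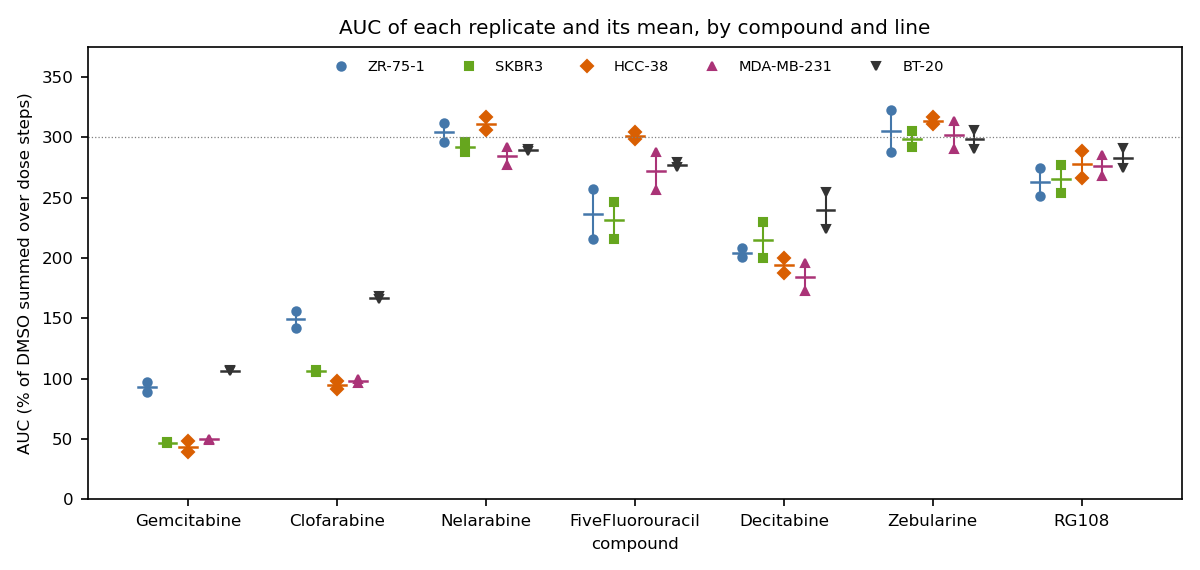
AUC of each replicate (symbols) and the mean (short bar) for each compound and line, with 300 for no change as a dotted line. The lowest values are those of Gemcitabine, from 43.3 in HCC-38 to 106.6 in BT-20, and the lines separate most clearly under Gemcitabine and Clofarabine.

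All 21 pairs of the 7 compounds were compared in each of the 5 lines, and 83 of these AUC differences passed the test (limma, adjusted over all pairs and lines). At matched doses, the number of pairs and lines that differed was 30 at 10 nM, 52 at 100 nM, 71 at 1000 nM and 84 at 10000 nM, adjusted over all 420 comparisons. At 10 nM all 30 were pairs with Gemcitabine. Gemcitabine had a lower AUC than each of the other 6 in all 5 lines, and Clofarabine lower than each of the remaining 5 in all 5 lines.

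Gemcitabine and Decitabine are both analogues of deoxycytidine, changed in the sugar in the first and in the base in the second. Gemcitabine had the lower AUC in every line. The AUC of Gemcitabine minus that of Decitabine was -167.96 ± 14.2 (SE) in SKBR3 and -150.6 ± 14.7 in HCC-38, then -134.8 ± 14.6 in MDA-MB-231, -132.9 ± 12.7 in BT-20 and -111.5 ± 17.2 in ZR-75-1. On the log2 scale, the fitted gap in all 5 lines was wider at 100 nM than at 10 nM, and narrower at 10000 nM than at 100 nM (the change with dose was not tested). The log2 difference was -2.61 in HCC-38 and -2.79 in SKBR3 at 100 nM, and -1.501 and -1.42 at 10000 nM. In MDA-MB-231 it was -2.48 ± 0.19 at 100 nM and -0.57 ± 0.19 at 10000 nM (limma, adjusted p = 0.00408). All 20 comparisons by dose and line passed.

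Gemcitabine and Clofarabine differ in base (cytosine against a chlorinated adenine) and in the sugar. The AUC of Gemcitabine was lower in all 5 lines, with differences of -60.3 in BT-20 to -48.4 in MDA-MB-231 (limma, adjusted p between 6.21e-06 and 0.00188). The difference lay in the lower doses. At 10 nM it was -2.14 ± 0.16 on the log2 scale in HCC-38 and -0.55 ± 0.15 in BT-20. At 100 nM it was -1.17 ± 0.16 and -1.43 ± 0.15.

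At 1000 nM none of the 5 lines showed a difference between Gemcitabine and Clofarabine. The estimates ran from 0.04 to 0.13 log2, and their 95% intervals from -0.38 at the lowest to 0.45 at the highest, so that differences of that size in either direction could have gone unseen. At 10000 nM the same held for BT-20, HCC-38, SKBR3 and MDA-MB-231, with intervals from -0.52 to 0.44. In ZR-75-1 Gemcitabine left fewer cells, 21.8% against 30.4% (wells at 20.8% and 22.8%, and at 30.1% and 30.8%, log2 difference -0.49 ± 0.21, limma adjusted p = 0.0381). At both doses HCC-38, SKBR3 and MDA-MB-231 were the 3 lowest lines under both compounds, in that order, and ZR-75-1 and BT-20 the 2 highest.

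**Figure D3:**
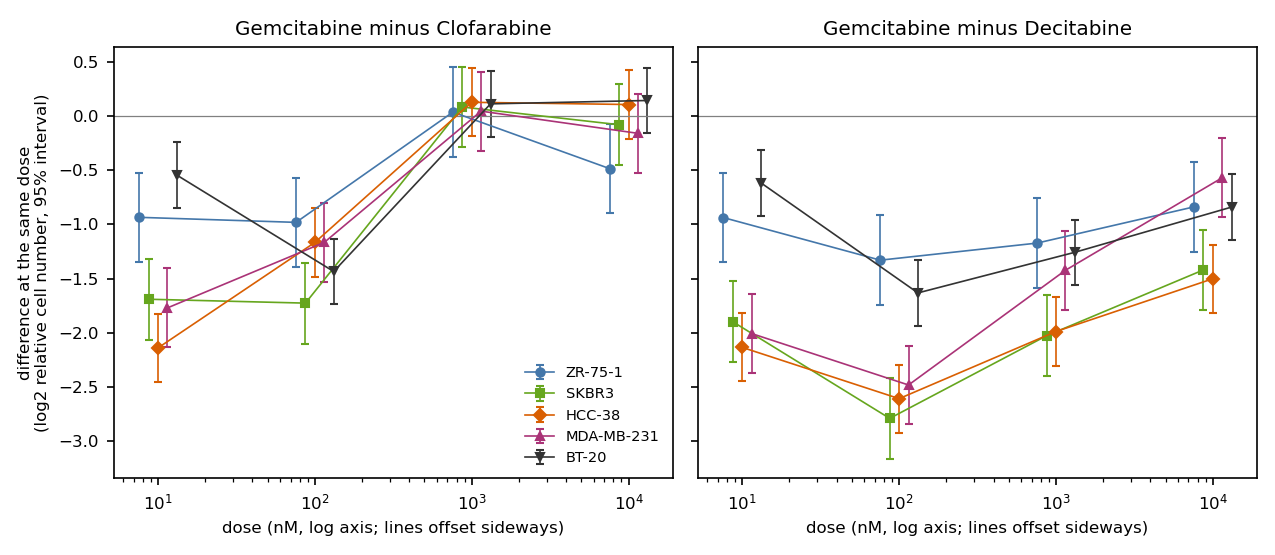
Difference in log2 relative cell number between Gemcitabine and Clofarabine (left) and between Gemcitabine and Decitabine (right) at each dose (nM, log axis), with 95% intervals, by line. Gemcitabine and Clofarabine meet near 0 at 1000 nM, whereas Gemcitabine stays below Decitabine at every dose, by 0.57 or more.

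Clofarabine and Nelarabine are both purine nucleosides with an arabinose-type sugar, with halogens in the first and none in the second. Their AUC differed by -217.05 ± 14.7 in HCC-38 and -122.7 ± 12.7 in BT-20, with ZR-75-1 (-155.2 ± 17.2), SKBR3 (-186.01 ± 14.2) and MDA-MB-231 (-186.9 ± 14.6) between. At 10 nM they did not differ in any line (log2 -0.32 to -0.02, intervals reaching -0.70 and 0.28), and at 1000 and 10000 nM they differed in all 5. Between FiveFluorouracil, which lacks a sugar, and Gemcitabine, Gemcitabine had the lower AUC, by the most in HCC-38 (difference -258.3 ± 14.7) and by the least in ZR-75-1 (-143.5 ± 17.2).

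Among the DNMT inhibitors, Decitabine had a lower AUC than either of the others in all 5 lines. The difference from Zebularine was -58.9 ± 12.7 in BT-20 to -120.04 ± 14.7 in HCC-38, and that from RG108 was -43.6 ± 12.7 in BT-20 to -92.1 ± 14.6 in MDA-MB-231. Decitabine and Zebularine did not differ at 10 nM (0 of 5 lines), differed in 1 at 100 nM, in 4 at 1000 nM and in all 5 at 10000 nM. Zebularine had a higher AUC than RG108 in ZR-75-1 (by 41.9 ± 17.2), HCC-38 (36.2 ± 14.7) and SKBR3 (33.1 ± 14.2), with limma adjusted p between 0.0193 and 0.0269. In MDA-MB-231 and BT-20 the differences of 25.4 and 15.2 did not pass, with intervals of -3.49 to 54.2 and -9.74 to 40.2. By single doses only ZR-75-1 at 10000 nM passed (113.9% against 78.1%, log2 difference 0.53 ± 0.21, limma adjusted p = 0.0231). The RG108 mean there included 1 sgRNA value below the lowest standard.

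**Figure D4:**
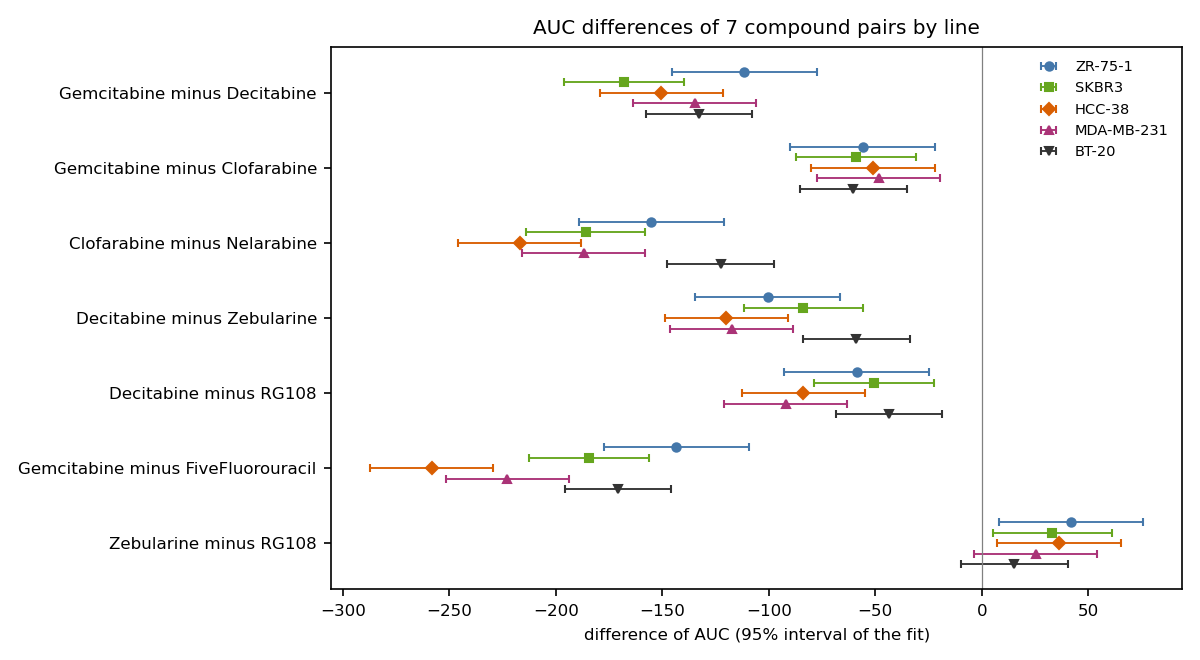
Differences of AUC (horizontal axis) for the 7 pairs described in the text, with 95% intervals, by line. Zebularine minus RG108 lies between 15.2 and 41.9, and Clofarabine minus Nelarabine and Gemcitabine minus FiveFluorouracil reach -217.05 and -258.3 in HCC-38.

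Of the other pairs, Nelarabine and Zebularine did not differ in any line, by -16.9 to -0.96, with intervals reaching from -45.8 to 32.97. Against the direction of the class means given below, Nelarabine had a higher AUC than Decitabine in all 5 lines. The difference was 50.1 in BT-20 to 117.6 in HCC-38 (limma, adjusted p at most 0.000164). FiveFluorouracil and Decitabine differed in 3 lines (by up to 107.7 in HCC-38). In SKBR3 the interval was -11.6 to 44.6 and in ZR-75-1 -1.92 to 65.9, so that no difference was detected. At 10000 nM FiveFluorouracil left fewer cells of SKBR3 than Decitabine did, 26.6% against 36.5%, and more of BT-20, HCC-38 and MDA-MB-231. FiveFluorouracil and RG108 differed in AUC in 1 line, SKBR3 (-34.2 ± 14.2, limma adjusted p = 0.0227).

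Taken as classes, the mean AUC of the 4 antimetabolites was below that of the 3 DNMT inhibitors in all 5 lines. The errors and tests of these means hold the spread between wells and not that between compounds. They therefore compare these 7 compounds, and not the classes in general. The class means were 169.1 and 259.7 in SKBR3 (difference -90.6 ± 7.69), 176.1 and 254.2 in MDA-MB-231 (-78.0 ± 7.90), and 187.7 and 261.8 in HCC-38 (-74.1 ± 7.93). They were 210.1 and 273.7 in BT-20 (-63.6 ± 6.85) and 195.7 and 257.6 in ZR-75-1 (-61.96 ± 9.30). By dose, the antimetabolites were lower in 20 of 20 comparisons of a dose in a line (limma). The log2 difference was -0.61 to -0.20 at 10 nM, -0.98 to -0.38 at 100 nM, -1.24 to -0.74 at 1000 nM and -1.39 to -0.79 at 10000 nM.

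At the low doses these class differences depended most on Gemcitabine. With Gemcitabine left out, a comparison added after the values were seen, 0 of 5 lines differed at 10 nM (log2 -0.14 to 0.05) and 3 at 100 nM (SKBR3, HCC-38 and MDA-MB-231). All 5 still differed at 1000 nM (-0.83 to -0.44) and 10000 nM (-1.06 to -0.50). Without Decitabine the class difference at 10000 nM was -1.87 to -1.21, and without Nelarabine -2.02 to -1.21. Leaving out any 1 compound other than Gemcitabine kept all 5 lines at 100 nM and above, and at 10 nM leaving out Zebularine kept 3. The spread of the AUC within the antimetabolites, 67.9 to 296.4 over lines, was wider than the gap between the classes.

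**Figure D5:**
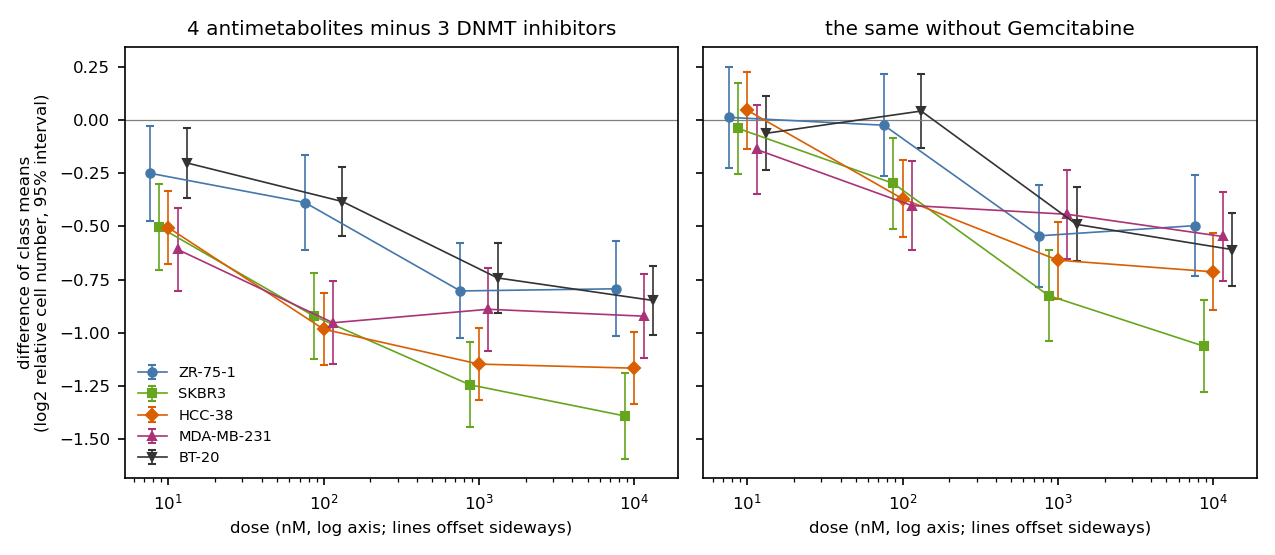
Mean log2 relative cell number of the 4 antimetabolites minus that of the 3 DNMT inhibitors at each dose (nM, log axis), with 95% intervals, by line, for all 7 compounds (left) and without Gemcitabine (right). At 10 nM the difference is below 0 in all 5 lines on the left and around 0 on the right.

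The lines themselves differed by compound. Against the mean of the 4 other lines, the AUC of a line passed the test in 12 of 35 cases, beside 22.1% of the 870 cases of the screen (limma). Of these, 10 were Gemcitabine and Clofarabine in all 5 lines. Under Gemcitabine, BT-20 was higher by 48.4 ± 6.15 (replicates at 107.2 and 106.03) and ZR-75-1 by 31.4 ± 6.15 (97.3 and 88.8). The 3 remaining lines were lower, with -30.7 in HCC-38, -26.2 in SKBR3 and -22.9 in MDA-MB-231.

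Clofarabine gave the same signs, with BT-20 higher by 55.03 ± 6.50 and ZR-75-1 by 32.6, and with -20.98 in SKBR3, -31.2 in MDA-MB-231 and -35.5 in HCC-38. The other 2 were BT-20 under Decitabine, higher by 40.1 ± 11.1 (replicates at 224.4 and 254.6, adjusted p = 0.0316 by limma), and HCC-38 under FiveFluorouracil, higher by 47.2 ± 12.8 (304.5 and 298.7, limma adjusted p = 0.0287). SKBR3 under FiveFluorouracil (-40.5 ± 12.8) just missed the threshold (limma adjusted p = 0.0519). No line passed under Nelarabine, Zebularine or RG108. The lines of a replicate shared their wells. With replicate as a block 17 cases passed, as FiveFluorouracil in SKBR3 and ZR-75-1, Decitabine in HCC-38 and MDA-MB-231, and Nelarabine in HCC-38 were added. With sgNT cells alone, 0 of the 12 passed.

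Whether 2 compounds differed by line was tested directly on the AUC of a line minus that of the 4 others in the same wells, and 55 such differences over 21 pairs and 5 lines passed (limma, adjusted over all of them). Without replicate 1 the number was 36 and without replicate 2 it was 29, where the lone replicate was taken to vary like the other compounds, and with sgNT cells alone it was 1. None of the 5 for Gemcitabine and Clofarabine did. Relative to the other lines, the gap between Gemcitabine and FiveFluorouracil was 77.9 ± 11.8 wider in HCC-38 and 65.6 ± 13.5 narrower in ZR-75-1. BT-20 narrowed the gap between Clofarabine and Nelarabine by 63.6 ± 8.13 and that between Decitabine and Zebularine by 46.6 ± 8.13. For the 2 deoxycytidine analogues, the gap was 35.5 ± 9.60 wider in SKBR3 and 35.1 ± 13.5 narrower in ZR-75-1.

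Over the sgRNAs of a line, the SD of the AUC was 2.59 to 9.60 for Gemcitabine, 3.65 to 11.3 for Clofarabine and 7.19 to 18.8 for Decitabine. Its upper end was higher for FiveFluorouracil (11.2 to 27.8), Nelarabine (12.03 to 27.3), RG108 (10.4 to 23.5) and Zebularine (13.1 to 39.5). After the exclusion criteria of the methods (too little toxicity or dose dependence of sgNT, among others), 17 of the 35 pairs of a line and a compound were left, 5 lines each for Clofarabine, FiveFluorouracil and Decitabine, with BT-20 for Gemcitabine and MDA-MB-231 for Zebularine. Gemcitabine dropped out of 4 lines because its sgNT value was already low at 10 nM and fell by under 25 points.

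In each of these 17 pairs, every other sgRNA of the line was compared with sgNT (12 sgRNAs with sgNT included, or 10 in ZR-75-1). After adjustment 0 passed (limma), beside 0.0777% of 5150 in the screen. The unadjusted limma p was under 0.05 in 8 of these comparisons. Some tests fall under that limit by chance alone, so the 8 were not read as differences. The 3 with the lowest p were sgATF4 under FiveFluorouracil in MDA-MB-231 (AUC 224.03 against 300.5, difference -76.5 ± 28.02, limma adjusted p = 0.426), and sgATG7 and sgHSF2 under Decitabine in ZR-75-1 (229.7 each against 185.7, SE 16.9, limma adjusted p = 0.513). ATF4 is a transcription factor of the integrated stress response, ATG7 an enzyme of autophagosome formation, and HSF2 a heat shock factor. By the methods' t-test with its threshold of 25 on the difference, 1 of the same comparisons in the 17 pairs passed, beside 3.57% of the 5150 comparisons of the screen. It was sgATF3 under Decitabine in MDA-MB-231 (213.6 against 160.9, higher by 52.7), and 0 passed after Benjamini-Hochberg adjustment. There sgATF3 had the highest AUC of the 12 sgRNAs and sgNT itself the lowest.

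Outside the 7 compounds, the likeness of the response was measured as the root mean square difference over the 20 log2 line means of the 5 lines and 4 doses, among all other compounds with the same doses. These means were not centred, so that the distance includes the overall size of the effect at each dose. A shared mechanism was not tested. Nearest to Gemcitabine were GSK461364, an inhibitor of the mitotic kinase PLK1 (0.52), and the microtubule drugs Paclitaxel (0.57) and Vincristine (0.69). Nearest to Clofarabine were the topoisomerase poisons Teniposide (0.49), Doxorubicin (0.59) and Topotecan (0.63). Decitabine was closest to IBET151, an inhibitor of BET bromodomain proteins (0.20), then to the kinase inhibitors LRRK2IN1 (0.27) and Dasatinib (0.35). Within the 7, the distance was 1.02 between Gemcitabine and Clofarabine, 1.70 between Gemcitabine and Decitabine, and 0.11 between Nelarabine and Zebularine. Neither Nelarabine nor Zebularine had a value that passed the test against DMSO.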

How the data were processed

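Reads per well were counted by the authors for every combination of line barcode and sgRNA barcode after demultiplexing (bcl2fastq in the submitters' processing notes); no genome alignment or normalization was applied to these deposited counts. A second table deposited by the authors gives relative cell number as a ratio, in percent: reads were converted to cells with the standards of the same well and divided by the median over DMSO wells for that line and sgRNA. Repeating this from the counts returned all 83520 deposited values within 5.32e-05 (log2), and supplied the values of DMSO wells. Reads carry no molecular identifiers, so precision was taken from replicate wells.

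Line means were tested with limma 3.58.1 in R 4.3.3, as log2 values by dose with DMSO wells, and as AUC, over all compounds with values, with Benjamini-Hochberg adjustment at 0.05. Alternatives changed the sgRNA summary, the DMSO reference, the scale, the barcode swap correction, the block, the replicates and the tool (edgeR 4.0.16 on counts of the 7 compounds and DMSO, with the standards as offset). The fits were tested on simulated data. Members, lists and tests were chosen with earlier results of these data known. All 7 compounds and 5 lines are named, 7 pairs in full, sgRNAs if called or else the 3 with the lowest p, and the 3 outside compounds nearest to Gemcitabine, Clofarabine and Decitabine. The sgATF3 call of the methods' t-test was named after its value was seen. Plates of compound wells were not named in the labels. The labels of DMSO wells join a plate to a single dose level and replicate number. In sample order, the 7 compounds stand in a block with the DMSO wells of a single plate at each dose level and replicate. Read by that order, the 7 shared a plate each time, and dose and plate cannot be told apart in the dose trends above.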

Additional observations from a re-analysis of the deposited data

Results flagged for a closer look

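The difference between the classes was itself different between lines. The AUC of the antimetabolites minus that of the DNMT inhibitors was lower in SKBR3 than in the mean of the other lines by 21.2 (-21.2 ± 5.19, limma adjusted p = 0.000328), and higher in BT-20 by 12.6 ± 4.39 (limma adjusted p = 0.0113).

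Of the 7 pairs given in full, 6 had an AUC difference that was not the same in a line as in the others, and their values follow. They are part of the 55 such differences that passed over all 21 pairs. For Gemcitabine minus FiveFluorouracil it was 65.6 higher in ZR-75-1 and 31.5 higher in BT-20, and -77.9 in HCC-38 and -33.5 in MDA-MB-231. Gemcitabine minus Decitabine differed by 35.1 in ZR-75-1 and -35.5 in SKBR3. Clofarabine minus Nelarabine differed by 63.6 in BT-20 and -54.3 in HCC-38. Among the DNMT inhibitors, Decitabine minus Zebularine differed by 46.6 in BT-20, -29.9 in HCC-38 and -26.6 in MDA-MB-231, and Decitabine minus RG108 by 27.7 in BT-20 and -32.9 in MDA-MB-231. Zebularine minus RG108 differed by -18.9 in BT-20. These values were picked out for differing between lines by the test of the difference itself, with limma adjusted p at or below 0.0418, and no cause was tested.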

How the results depend on the processing

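The AUC difference between the classes stayed below 0 and past the threshold in all 5 lines under every alternative run, at -101.9 to -79.3 in SKBR3 and -75.4 to -48.5 in ZR-75-1 with 1 replicate left out, and at -115.4 to -25.996 in HCC-38 with 1 compound left out of its class. Values below DMSO numbered 49 to 60, and the replicate numbers as a block left 54. The replicate numbers mark a shared well between lines. Between compounds their deviations correlated at -0.92 to 0.94, with a median of -0.29. With only 5 lines behind each correlation, these values cannot decide whether compounds shared a replicate effect. By sample order the compounds did share a plate at each dose level and replicate, and the main fits held no term for plate. With sgNT alone, compound differences that differed between lines fell from 55 to 1, and lines called against the others from 12 to 0. Leaving out a replicate gave 29 to 36, with the spread taken from the other compounds. For lines against the others it gave 0 to 0, which says nothing about stability, because 1 value per line leaves a compound no spread of its own. Without Gemcitabine, a choice made after seeing the data, the class comparisons by dose and line that passed went from 20 to 13. The methods' t-test called 1 sgRNA above sgNT in place of 0. The causes were not tested. Of 700 recomputed values of named pairs and lines, 61 lost their call (12 of them in each of those line fits), 8 gained one and 0 reversed. The shallowest well, with 78898 reads, was replicate 2 of Gemcitabine at 1000 nM. That dose and replicate was also the shallowest for Clofarabine (196588), Nelarabine (237170), Decitabine (134862), Zebularine (176245) and RG108 (646520). For FiveFluorouracil it held 222530 reads, and replicate 2 at 10000 nM held 206060. Low depth thus went with this dose and replicate rather than with Gemcitabine alone. The labels of DMSO wells join a plate to a single dose level and replicate, so that low depth and plate cannot be told apart here. The paper describes 1 plate whose reads were markedly fewer than those of the rest.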
